A study of Mus musculus with 12 samples.

Results

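ATF4 and 9 genes known as its targets or as partners in the same stress response were followed across oocytes with altered *Dpagt1*, the gene for the enzyme that starts the assembly of *N*-glycans in the endoplasmic reticulum. The 10 genes are *Atf4*, *Fgf21*, *Asns*, *Psat1*, *Phgdh*, *Ddit3*, *Chac1*, *Trib3*, *Sesn2* and *Ddit4*, out of 24255 genes in the deposited table, and all 10 were found there by symbol. They were chosen by name as ATF4 targets and with their FPKM values in these 12 libraries in view, so their levels are given as a description, and no p-value is printed for them. RNA-Seq was carried out on 12 libraries of 20 immature oocytes each, 3 per group. All oocytes came from C57BL/6 mice aged 3 weeks and were collected 46 h after priming with PMSG, a gonadotropin that drives follicle growth. WT mice were labelled WT, with no allele named. MUT mice were homozygous for the missense allele D166G of *Dpagt1* in the whole body, so their granulosa cells were mutant as well. In GcKO mice (Dpagt1F/F Gdf9CRE/+) the floxed gene was deleted by a Cre recombinase driven from the oocyte gene *Gdf9*. In AmcKO mice (Dpagt1F/F Amhr2CRE/+) Cre was driven from *Amhr2*, a gene of granulosa cells, so the sequenced oocytes were not the targeted cells. The WT label does not state whether the floxed allele was present, and no group labelled with Cre alone was analysed here.

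ATF4 is a transcription factor whose protein is made more efficiently when the translation factor eIF2 is phosphorylated, as happens under amino acid shortage or when unfolded proteins build up in the endoplasmic reticulum. It then binds, often together with a C/EBP protein, to short composite sites and switches on genes for amino acid synthesis and transport, for regulators of stress signalling and, in several tissues, for the secreted hormone FGF21. Because this control acts largely on translation, the amount of *Atf4* mRNA is only part of the picture, and the protein was not measured in these libraries.

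The composite site was looked for in the promoters of the members, since it is the sequence through which ATF4 is known to act. The letters TGATGNAA were searched on both strands in the 250 bases before the RefSeq start of each gene, in promoter sequences on GRCm38.p6. All 10 members had a promoter there. The *Psat1* starts used lay 22278 and 22715 bases inside its GENCODE gene, so the bases before its GENCODE start were not searched. Those of *Ddit4* and *Sesn2* lay 64 and 45 bases inside. The motif lay before 3 of the 10 members, *Fgf21*, *Asns* and *Chac1*, and before 3.45% of all 32851 promoters. The stricter form TGATGCAA, which is contained in it, lay before *Fgf21* and *Chac1* and before 0.791% of all promoters. The stretches around the 3 matches are printed 5′ to 3′ on the strand of the gene, with the match in capitals, since they are the members' matches to the letters searched.
Fgf21: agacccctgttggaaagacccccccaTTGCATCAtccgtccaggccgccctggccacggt
Asns: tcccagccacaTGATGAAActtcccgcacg
Chac1: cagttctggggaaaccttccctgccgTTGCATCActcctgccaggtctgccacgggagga
The *Fgf21* stretch is chr7:45615596-45615655 on the minus strand, with the match 139 to 132 bases before the start and on the opposite strand. The *Asns* stretch is chr6:7693214-7693243 on the minus strand, with the match 23 to 16 bases before the RefSeq start. GENCODE places the start of *Asns* 45 bases further upstream, inside which this match falls. The *Chac1* stretch is chr2:119351023-119351082 on the plus strand, with the match 193 to 186 bases before the start. A match is a stretch of letters and not a measured binding site.

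Expression is given in FPKM, sequenced fragments scaled to the length of the transcript and to the depth of the library. Differences between groups were estimated with limma on log2(FPKM + 1) and are given ± SE on that scale, which understates the change of low genes. The SE rests on a spread shared by all groups. A group listed at 0 throughout, as WT and AmcKO were for *Fgf21* and WT for *Asns*, adds no spread and can lower it. Calls were made below an adjusted p of 0.05, by the Benjamini-Hochberg method over the 11233 transcripts that reached 1 FPKM in at least 1 library. No source says that the libraries of a group came from separate mice, so p-values measure the spread between pools of 20 oocytes, which may be technical. Summed FPKM per library ran from 1167362 to 1226005 in the WT group. The MUT sums were 589617 to 611597, the GcKO sums 482314 to 684212 and the AmcKO sums 883256 to 1107925, while 9359 to 9622 genes were above 0 in WT against 11208 to 11467 in MUT. Scaling every library to the same sum moved the median difference of all transcripts between MUT and WT from 0.12 to 0.68 on the log2 scale, and the calls from 1063 higher and 1269 lower to 4668 higher and 249 lower. For GcKO against WT the same scaling moved the median from 0.12 to 0.71. All 12 oocyte markers examined were above 0 in every library. As deposited, *Dppa3*, *Ooep*, *Zp2* and *Zp3* were called lower in MUT than in WT, and the first 3 of these also in GcKO. *Dpagt1* itself was at 0 in all 3 WT libraries, at 0.408 to 0.985 FPKM in MUT and at 0.366 FPKM in GcKO replicate 2 alone among the GcKO and AmcKO libraries. The table therefore cannot check the deletions.

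Low values in these libraries were close to whole multiples of the value of 1 sequenced fragment, which gives their relative depth. With MUT replicate 2 set to 1.00, a fragment counted for 2.28 to 2.67 in the WT libraries and for up to 1.21 in the other MUT libraries. It counted for 0.90 to 1.50 in the GcKO group and for 1.21 to 1.50 in the AmcKO group. A gene thus had to be more abundant to be seen once in WT than in the other groups. The fragments behind the low members are given below as multiples of their smallest value, corrected for this worth. They are therefore minimum numbers of fragments, and amplified fragments are not independent molecules.

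*Atf4* (chr15:80255184-80257541, plus strand, GENCODE M21 on GRCm38, as for the other positions of genes) encodes the transcription factor itself. In WT it measured 15.9, 33.0 and 20.5 FPKM in replicates 4, 5 and 6. The MUT libraries measured 96.2, 101.7 and 121.9 FPKM in replicates 1, 2 and 3. All 3 MUT values lay above every other library. GcKO gave 72.5, 45.5 and 28.1 FPKM, and AmcKO gave 29.8, 23.4 and 39.5 FPKM. GcKO spread widely, with replicate 1 nearest to MUT and replicate 3 within the range of WT, and AmcKO overlapped WT. The log2 difference from WT was 2.21 ± 0.32 in MUT, 1.00 ± 0.32 in GcKO and 0.43 ± 0.32 in AmcKO. In order of mean level, MUT (106.6 ± 13.5 FPKM, SD, n = 3) stood first, and GcKO (48.7 ± 22.4), AmcKO (30.9 ± 8.07) and WT (23.2 ± 8.84) followed with overlapping ranges. The GcKO difference depended on single libraries, since it passed the threshold only when GcKO replicate 3 or WT replicate 5 was the one left out, or none. Over the 6 libraries left out in turn it ranged from 0.67 to 1.34. Oocytes were sequenced in bulk, so more RNA per cell and more cells with the RNA cannot be told apart.

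*Fgf21* (chr7:45613886-45615490, minus strand) encodes a hormone of the fibroblast growth factor family, best known from liver, where it is secreted under fasting and stress. It was listed at 0 in all 3 WT and all 3 AmcKO libraries. In MUT it measured 73.6, 49.3 and 77.2 FPKM, and in GcKO 1.89, 0 and 0 FPKM. Every MUT library thus stood far above all others, while the oocyte deletion gave a single low value in replicate 1. If that value was 1 fragment, the MUT libraries held about 35, 25 and 33 fragments, and 1 fragment would have been worth 4.47 to 5.23 FPKM in WT. No fold is given against WT or AmcKO, where the gene was listed at 0. Between GcKO and MUT the log2 difference was -5.54 ± 0.39, and with each of the 6 libraries left out it ranged from -6.05 to -5.29.

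*Asns* (chr6:7675169-7693254, minus strand), the enzyme that makes asparagine from aspartate and glutamine, showed the same order at a lower level. WT libraries were all listed at 0. MUT gave 3.89, 6.02 and 4.85 FPKM, GcKO 0.771, 0.722 and 0 FPKM, and AmcKO 0.601, 0 and 0 FPKM. The MUT values did not overlap any other group and correspond to at least 9, 15 and 10 fragments, against at most 2 in a GcKO library on the same count. The log2 difference between GcKO and MUT was -2.01 ± 0.32. That call was lost when any 1 MUT library or GcKO replicate 3 was left out, where the difference stayed between -2.16 and -1.75.

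*Phgdh* and *Psat1* encode the first and second enzymes of serine synthesis from the glycolytic intermediate 3-phosphoglycerate. *Phgdh* measured 0.971, 1.10 and 0.941 FPKM in WT, 3.58, 2.91 and 5.02 FPKM in MUT, 1.59, 2.61 and 1.24 FPKM in GcKO, and 2.49, 0 and 1.51 FPKM in AmcKO. All MUT values lay above the other 9 libraries. The close WT values each correspond to 1 fragment, so their small spread is that of a count that cannot go lower without reaching 0. The log2 difference of 1.25 ± 0.41 between MUT and WT lost its call when any 1 of the 6 libraries was left out, with values from 1.08 to 1.39. *Psat1* was listed at 0 in WT, GcKO and AmcKO. MUT gave 0.378, 0.700 and 2.54 FPKM, which are at least 1, 2 and 6 fragments. Since 1 fragment would have been worth 0.795 to 0.930 FPKM in WT, on this count the levels of MUT replicates 1 and 2 were below what a WT library could have shown. The *Psat1* call against WT was lost without any 1 WT library or MUT replicate 2. Without MUT replicate 3 the gene fell below the filter and was not tested. Quantile normalization and a fit of the 2 groups alone also ended the call.

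*Chac1* (chr2:119351229-119354381, plus strand) encodes an enzyme that degrades glutathione and is known as a sensitive target of ATF4 together with C/EBP factors. It measured 0, 1.36 and 0 FPKM in WT and 2.22, 4.13 and 6.23 FPKM in MUT. GcKO gave 0.987, 0.463 and 0 FPKM, and AmcKO gave 0.771, 0 and 0 FPKM. MUT did not overlap the other groups, and its libraries held at least 4, 8 and 10 fragments against 1 in the single WT library above 0. The log2 difference between MUT and WT was 1.89 ± 0.44, and between MUT and AmcKO it was 2.02 ± 0.44. The first ranged from 1.61 to 2.30 with each library left out. The second was no longer called without MUT replicate 2, MUT replicate 3 or AmcKO replicate 5, where it stayed between 1.75 and 2.33.

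*Ddit3*, which encodes the transcription factor CHOP that acts downstream of ATF4 in prolonged stress, had by far the highest FPKM of the 10 genes and did not follow *Fgf21*. WT gave 316, 353 and 501 FPKM, MUT 382, 387 and 319 FPKM, GcKO 145, 202 and 258 FPKM, and AmcKO 299, 418 and 249 FPKM. MUT lay within the range of WT, and all GcKO libraries lay below all WT libraries, as they did for 16.0% of all transcripts. The log2 difference was -0.08 ± 0.24 in MUT and -0.96 ± 0.24 in GcKO against WT as deposited, but 0.91 and 0.08 after scaling to the same sum, and 0.76 in MUT after quantile normalization. Relative to the median of all transcripts, GcKO stayed below 0 under the 4 scalings (-1.08 to -0.19), while the side of 0 in MUT depended on the scaling. The GcKO call was also lost without WT replicate 6 or GcKO replicate 1, at -1.16 to -0.74 over the libraries left out. *Ddit3* shares 71 bases with its neighbour *Mars*, and no source states that strand was used in counting, so reads from the shared part cannot be told apart. *Mars* itself was at 0 to 2.63 FPKM.

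The remaining members were near the limit of detection. *Ddit4*, an inhibitor of the growth kinase complex mTORC1, measured 0, 1.25 and 3.21 FPKM in WT, 1.53, 1.90 and 1.72 FPKM in MUT, 1.36, 2.13 and 2.13 FPKM in GcKO, and 0, 0.670 and 0 FPKM in AmcKO. Neither MUT nor GcKO separated from WT, whose 3 libraries spanned 0 to 3 fragments. *Sesn2*, a stress-induced inhibitor of mTORC1 that also senses leucine, measured 0.602, 0.279 and 0.337 FPKM in MUT and 0.394 FPKM in AmcKO replicate 5, and was at 0 in the other 8 libraries. These are 1 or 2 fragments, and 1 fragment would have been worth 0.635 to 0.743 FPKM in WT. *Trib3*, a pseudokinase that dampens the ATF4 response, was above 0 only in GcKO replicate 1, at 0.360 FPKM. Thus *Sesn2*, with a highest value of 0.602 FPKM, and *Trib3* fell below the filter of 1 FPKM, and 8 of the 10 members were tested. Of these, *Psat1* had the smallest maximum, 2.54 FPKM. *Fgf21* passed the filter through MUT and GcKO replicate 1, *Asns* and *Psat1* through MUT only.

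**Figure D1:**
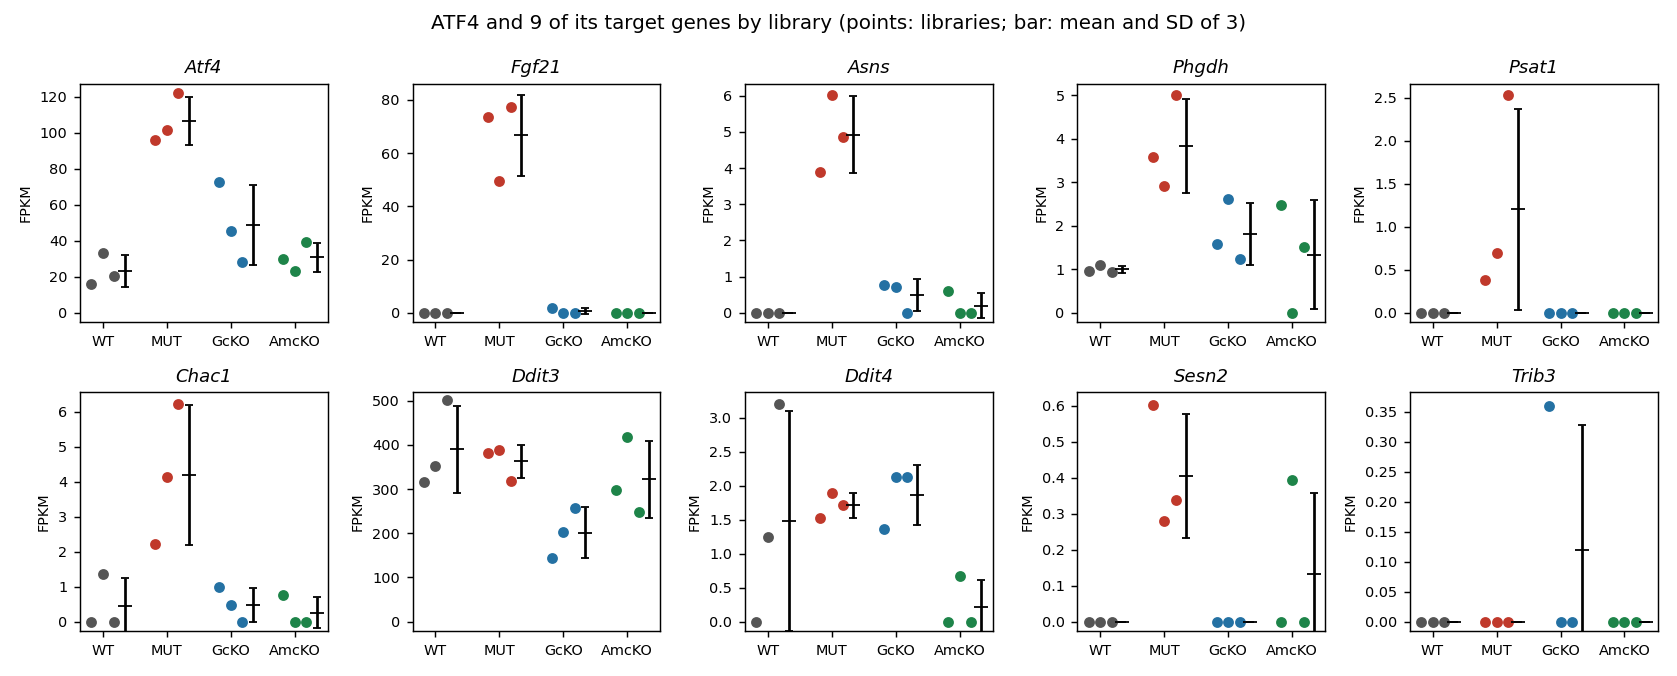
FPKM of the 10 genes in each of the 12 libraries, one panel per gene with its own linear axis. Points are libraries, and the bar beside each group is the mean with the SD of 3 libraries. In *Atf4*, *Fgf21*, *Asns*, *Phgdh*, *Psat1* and *Chac1* the 3 MUT points lie above all 9 others, while *Ddit3* is lowest in GcKO.

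Against WT, 6 members were called higher in MUT (*Fgf21*, *Asns*, *Atf4*, *Chac1*, *Psat1* and *Phgdh*), where 9.46% of all transcripts were called higher and 20.8% were called at all. In the same 6 members the 3 MUT libraries lay above the other 9, as they did for 186 of 11233 transcripts or 1.66%. In GcKO against WT *Atf4* was called higher and *Ddit3* lower, where 20.2% of all transcripts were called. In AmcKO against WT 0 of 8 members were called by limma, where 0.214% of all transcripts were called, and 0 at an unadjusted p under 0.05, where 15.6% of all transcripts were. These shares describe the choice of members and nothing is read from them. MUT, GcKO and AmcKO share the 3 WT libraries, so their differences from WT are not independent of each other. Between the altered groups, GcKO was lower than MUT in *Fgf21* and *Asns*, where 0.134% of all transcripts were called lower. *Fgf21*, *Asns*, *Atf4* and *Chac1* were called higher in MUT than in AmcKO, where 1.42% were called higher. GcKO against AmcKO gave 0 member calls by limma where 5.46% of all transcripts were called, and 2 of 8 at an unadjusted p under 0.05, where 19.3% of all transcripts were.

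With each difference taken relative to the median of all transcripts, *Atf4* in MUT against WT stood at 2.09 as deposited, 2.49 under quantile normalization and 2.49 with equal sums. *Chac1* ranged from 1.61 to 1.77 and *Phgdh* from 0.97 to 1.15. All of these stayed above 0 under the 4 scalings, whereas *Ddit3* went from -0.20 as deposited to 0.74 under quantile normalization. In GcKO against WT *Atf4* stood at 0.88 as deposited and 1.29 with equal sums.

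**Figure D2:**
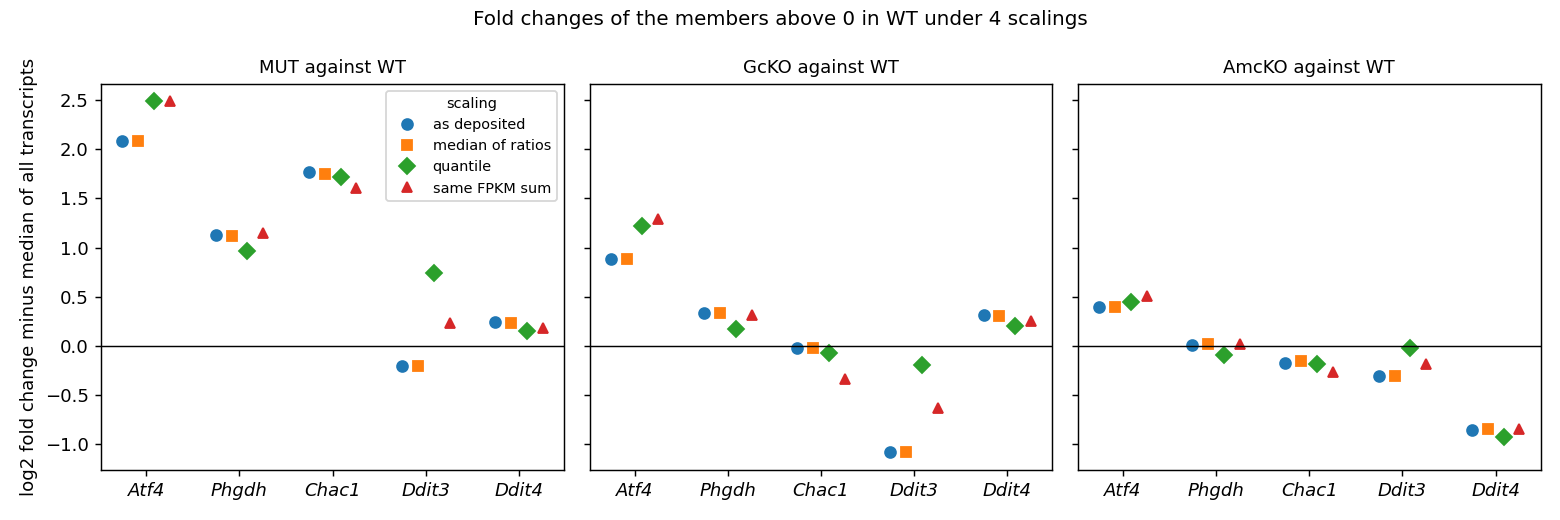
Log2 fold change of the 5 tested members that were above 0 in at least 1 WT library, minus the median of all transcripts, on log2(FPKM + 1), for MUT, GcKO and AmcKO against WT under 4 scalings (symbols). *Atf4* is above 0 in every panel and largest in MUT, and *Ddit3* changes side of 0 with the scaling in MUT.

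The genes around ATF4 were described with 9 lists of 165 genes in the table, without the members, of which 119 were tested. In MUT against WT, 21 were called higher and 8 lower, that is 24.4% of those tested against 20.8% of all transcripts, with a median difference of 0.46 against 0.12 over all transcripts tested. Leaving out the 9 genes at 0 in all libraries of either group made the median 0.44. Scaling to the same sum turned the calls into 71 higher and 1 lower, and quantile normalization into 16 higher and 4 lower. With each of the 6 libraries left out in turn, 8 of the 21 higher calls and 7 of the 8 lower calls held every time. In GcKO against WT, 11 were called higher and 9 lower, which is 16.8% of those tested against 20.2% of all transcripts, or 66 higher and 2 lower with equal sums, and the median was 0.34. In AmcKO against WT only *Cth* was called, and 13 of the 119, or 10.9%, had an unadjusted p under 0.05, against 15.6% of all transcripts. The lists follow from the event that raises ATF4 to its targets. Their separate counts are small and stand beside the shares of all transcripts, of which 9.46% were called higher in MUT against WT.

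Among eIF2 kinases, eIF2 subunits and the eIF2 phosphatase, 3 of 16 tested genes were higher and 4 lower in MUT, and as many in GcKO. The heme-regulated kinase gene *Eif2ak1* measured 13.5 to 20.7 FPKM in WT and 19.9 to 20.6 FPKM in MUT (adjusted p = 0.474, limma). *Eif2ak3*, for the kinase PERK of the endoplasmic reticulum, was at or below 0.424 FPKM in every library and was not tested. *Ppp1r15b*, a subunit that directs the phosphatase to eIF2, rose by 1.48 ± 0.30 in GcKO (adjusted p = 0.00326, limma), from 0.572 to 0.999 FPKM in WT to 3.19 to 4.71 FPKM. It also rose by 1.06 ± 0.30 in MUT (adjusted p = 0.0215, limma), a call that held in 2 of the 6 fits with a library left out. *Nck1*, an adaptor protein, fell by 1.02 in MUT (SE 0.16, adjusted p = 0.000638, limma), a call lost with equal sums. In GcKO its log2 difference was -0.91 ± 0.16 (adjusted p = 0.00135, limma), and that call was lost with equal sums as well. *Eif2b1*, a subunit of the exchange factor that reloads eIF2, fell by 1.27 in MUT (SE 0.21) and by 1.41 in GcKO (SE 0.21), and the MUT call was lost with equal sums or quantile normalization, while the GcKO call held.

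Of 13 tested bZIP factors and partners of ATF4, 3 were called higher in MUT (*Mafg*, *Nfe2l1* and *Cebpg*) and 2 in GcKO (*Mafg* and *Nfe2l1*), with 0 lower. *Mafg*, a small Maf protein that pairs with stress factors on DNA, was listed at 0 in WT and measured 1.96 to 4.15 FPKM in MUT and 2.82 to 3.08 FPKM in GcKO (adjusted p = 0.00115 and 0.000948, limma). Its mean in AmcKO was 1.73 FPKM, which was not called (adjusted p = 0.0972, limma). *Cebpg*, a C/EBP partner of ATF4, measured 2.12, 4.40 and 5.49 FPKM in WT and 9.26, 8.39 and 9.07 FPKM in MUT. Its rise of 1.05 ± 0.34 (adjusted p = 0.0421, limma) held without WT replicate 6 but was lost without any other of the 6 libraries, and the difference ranged from 0.74 to 1.27. *Atf3*, a common early target of ATF4, stayed at or below 1.17 FPKM in all libraries (adjusted p = 0.629 in MUT, limma).

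In amino acid synthesis and one-carbon metabolism, 4 of 17 tested genes were higher and 2 lower in MUT. *Mthfd2*, a mitochondrial folate enzyme, measured 56.3, 42.1 and 49.5 FPKM in WT and 74.3, 90.0 and 71.6 FPKM in MUT, above all other libraries. It rose by 0.66 ± 0.17 (adjusted p = 0.0161, limma), and the call was lost without WT replicate 5 or MUT replicate 2, where the difference lay within 0.56 to 0.76. GcKO, at 41.6 to 52.7 FPKM, lay in the range of WT. *Got2*, the mitochondrial aspartate aminotransferase, rose by 1.30 ± 0.29 in MUT (adjusted p = 0.00679, limma). Its differences of 0.86 ± 0.29 in GcKO and 0.83 ± 0.29 in AmcKO were not called. *Got1*, its cytosolic counterpart, fell by 1.41 in MUT (SE 0.21, adjusted p = 0.000413, limma). In GcKO the log2 difference of *Got1* was -0.87 ± 0.21 (adjusted p = 0.00868, limma), and both *Got1* calls were lost with equal sums. *Cth*, which makes cysteine from cystathionine, fell in all 3 altered groups, from 46.7 to 58.0 FPKM in WT to 26.5 to 30.4 FPKM in MUT, 20.4 to 24.1 FPKM in GcKO and 20.0 to 23.4 FPKM in AmcKO. Its difference in MUT went from -0.85 to 0.12 with equal sums, where the median of all transcripts was 0.68, and that scaling also ended the GcKO call. The AmcKO call was lost in a fit of those groups alone.

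Amino acid transporters gave 2 higher calls of 7 tested in MUT and 0 in GcKO. *Slc3a2*, the heavy chain that carries several amino acid transporters to the cell surface, measured 24.4, 13.03 and 15.8 FPKM in WT. The MUT libraries reached 45.9, 63.0 and 58.3 FPKM, above the 9 others. It rose by 1.63 ± 0.26 in MUT against WT (adjusted p = 0.000847, limma) and by 1.36 ± 0.26 against AmcKO (adjusted p = 0.00797, limma), and both calls held with each library left out. GcKO, at 28.9, 32.8 and 17.8 FPKM, lay between and was not called against WT (adjusted p = 0.156) or against MUT (adjusted p = 0.162). *Slc7a5*, a leucine transporter that pairs with *Slc3a2*, was at 0.991 to 1.23 FPKM in MUT and at 0 to 0.468 FPKM in WT, and was not called. It passed the filter through MUT alone. *Slc7a11*, the cystine transporter, was at 12.8 to 19.9 FPKM in WT and 20.9 to 24.4 FPKM in MUT (adjusted p = 0.108, limma).

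Among stress effectors, 3 of 16 tested genes were higher in MUT, and 1 in GcKO. *Nupr1*, a small stress-induced chromatin protein, and *Herpud1*, which helps to degrade proteins of the endoplasmic reticulum, were listed at 0 in the 9 libraries outside MUT. Both passed the filter through MUT alone, so their values are given with no p. *Nupr1* measured 2.04, 1.97 and 4.67 FPKM in MUT. It was the 1 listed gene called between GcKO and MUT, and that call was lost without MUT replicate 3, GcKO replicate 2 or GcKO replicate 3. Because of the filter, the calls of *Nupr1* and *Herpud1*, which the counts include, are a description from which nothing is read. *Herpud1* measured 1.35, 0.833 and 2.01 FPKM in MUT.

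Of 11 tested genes that regulate mTORC1 in either direction or act beneath it, 3 were higher in MUT (*Eif4ebp1*, *Flcn* and *Rragc*). In GcKO 2 were higher (*Deptor* and *Rragc*). *Eif4ebp1*, which blocks cap-dependent translation and is a known ATF4 target, measured 2.19, 0 and 4.23 FPKM in WT and 16.3, 16.3 and 24.1 FPKM in MUT. GcKO gave 2.71, 4.25 and 4.26 FPKM and AmcKO 0, 1.35 and 1.16 FPKM. MUT stood above all other libraries, and GcKO and AmcKO overlapped WT. The rise of 2.94 ± 0.51 (adjusted p = 0.00139, limma) held with each library left out, at 2.26 to 3.45.

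**Figure D3:**
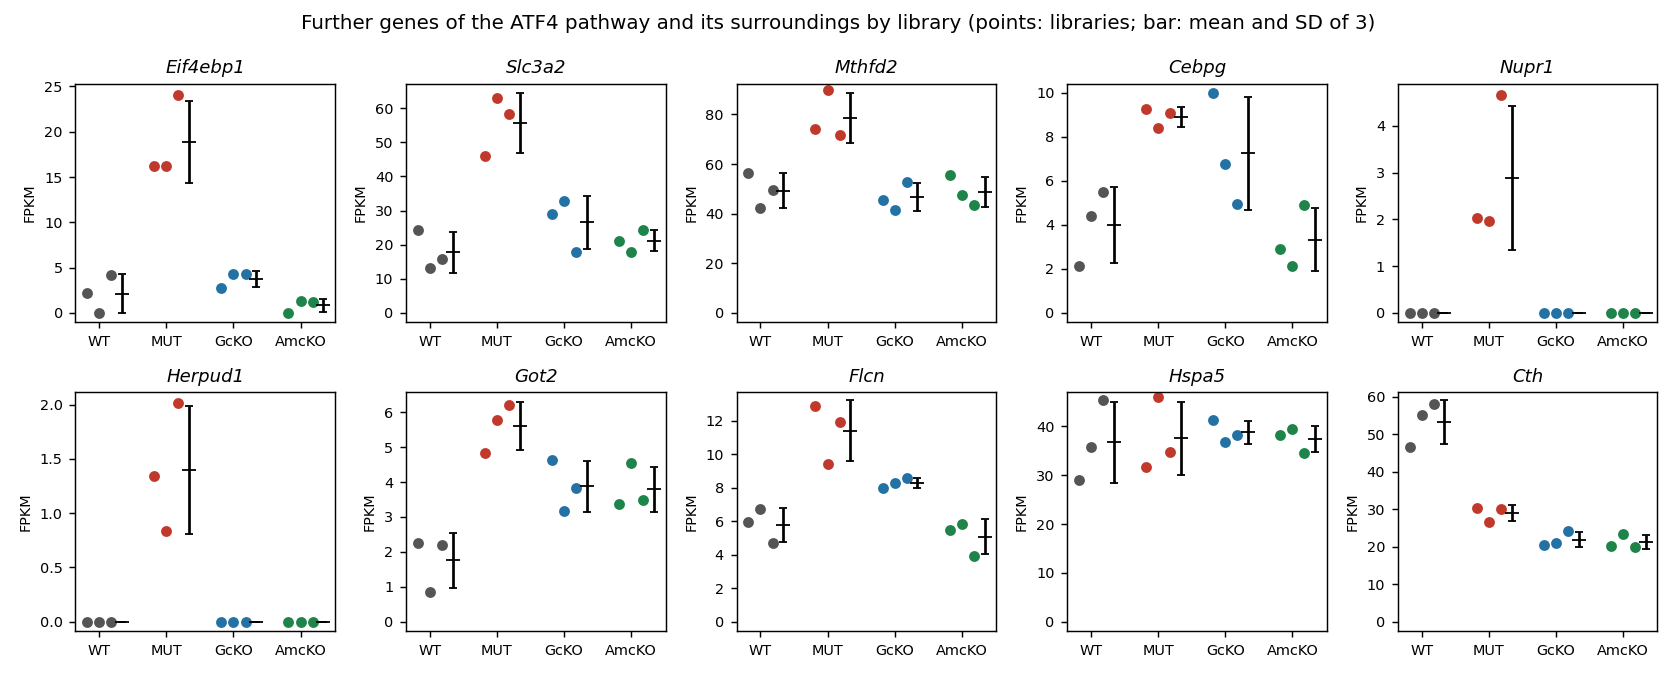
FPKM of 10 further genes in each of the 12 libraries, one panel per gene with its own linear axis. Points are libraries, and bars are the mean with the SD of 3 libraries. *Eif4ebp1*, *Slc3a2*, *Mthfd2*, *Nupr1*, *Herpud1*, *Got2* and *Flcn* are highest in the 3 MUT libraries, *Cth* is highest in WT, and *Hspa5* overlaps between all groups. Only 12 of the 119 tested listed genes had all MUT libraries above the other 9, as did 1.66% of all transcripts. The lists were chosen with earlier results of these data known, so nothing is read from that count.

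The chaperone arm of the unfolded protein response, controlled by ATF6 and XBP1, was tested with 26 genes, of which 3 were higher and 1 lower in MUT, and 2 were higher and 2 lower in GcKO. *Hspa5*, the chaperone BiP and the usual marker of this arm, measured 28.9, 35.9 and 45.5 FPKM in WT and 31.7, 46.1 and 34.8 FPKM in MUT (log2 difference 0.04 ± 0.20, adjusted p = 0.934, limma). GcKO, at 36.8 to 41.2 FPKM, overlapped both. *Dnajb11*, a cofactor of BiP, rose by 1.50 ± 0.32 in MUT (adjusted p = 0.005, limma). *Canx*, the lectin chaperone calnexin that binds glycoproteins, fell by 1.39 in MUT (SE 0.16, adjusted p = 0.000111, limma) and by 1.68 in GcKO (SE 0.16, adjusted p = 3.9e-05, limma), from 338 to 400.4 FPKM in WT to 129 to 158 FPKM and 95.6 to 136 FPKM. It kept its call under every scaling. *Manf*, a secreted protein of the endoplasmic reticulum, fell by 0.71 in GcKO as deposited (SE 0.14, adjusted p = 0.00355, limma), but stood at 0.33 with equal sums, where the median of all transcripts was 0.71.

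Of the FGF21 receptors and co-receptors, related growth factors and the transcription regulators *Ppara* and *Ppargc1a*, 13 genes were in the table and 6 were tested. By limma 0 were called in MUT, GcKO or AmcKO against WT, and 2, 0 and 0 had an unadjusted p under 0.05, where 34.1%, 33.7% and 15.6% of all transcripts did. *Fgfr1*, its main receptor, measured 0 to 1.69 FPKM in WT and 0.714 to 1.03 FPKM in MUT (adjusted p = 0.672, limma). *Klb*, the co-receptor that FGF21 needs, was above 0 in 2 libraries only, at 0.210 FPKM in MUT replicate 2 and 0.315 FPKM in AmcKO replicate 4. Of 7 tested genes of glutathione synthesis and turnover, only *Ggct*, a gene of turnover, was called lower in MUT and in GcKO. Both calls were lost with equal sums or quantile normalization.

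**Figure D4:**
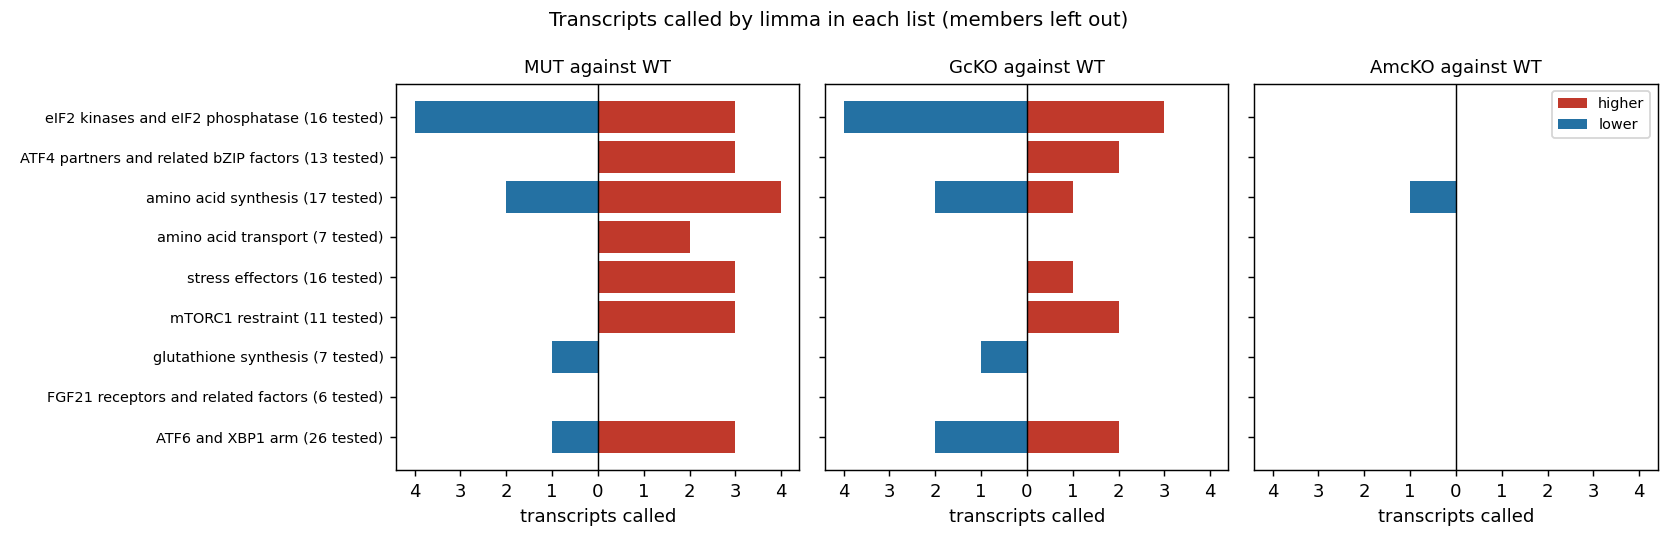
Number of transcripts called higher (right of 0) and lower (left of 0) by limma at an adjusted p under 0.05 in each of the 9 lists, against WT, with the members left out and the number tested beside each list. In MUT the higher calls number 0 to 4 per list, and AmcKO shows 1 lower call, *Cth*. The lists labelled mTORC1 restraint and glutathione synthesis also hold genes with other roles in these pathways, such as *Rragc* and *Ggct*.

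Some markers of granulosa cells, which surround the oocyte in the follicle, were higher in the MUT group as well. Of 16 granulosa and cumulus cell markers, 7 were tested, and 3 of them, *Gja1*, *Inha* and *Hsd17b1*, were called higher in MUT against WT and against AmcKO. Over all transcripts, 9.46% were called higher in MUT against WT and 1.42% against AmcKO. For *Gja1* and *Inha* the adjusted p against WT was 0.000646 and 0.0026 (limma), and *Hsd17b1* passed the filter through MUT alone. The other 4 were not called, with log2 differences of -0.68 for *Cyp19a1*, -0.04 for *Fshr*, -0.02 for *Kitl* and 0.22 for *Nr5a2*. Summed, *Gja1*, *Inha* and *Hsd17b1* stood at 0 in WT, at 10.8, 4.12 and 12.8 FPKM in MUT, at 1.53, 2.2 and 2.15 FPKM in GcKO and at 0 to 0.797 FPKM in AmcKO. The whole list summed to 17.6 to 23.5 FPKM in WT and 17.0 to 31.4 FPKM in MUT, most of it *Cyp19a1*, and without that gene to 2.53 to 3.93 FPKM in WT, 7.51 to 18 FPKM in MUT and 7.18 to 8.91 FPKM in GcKO. Of the same list, *Amh*, *Amhr2*, *Foxl2*, *Npr2*, *Slc38a3* and *Lhcgr* were at 0 in all 12 libraries. Markers of theca, stroma and blood went the other way, with sums of 6.19 to 11.9 FPKM in WT and 3.26 to 3.86 FPKM in MUT. Of the 2 tested, *Dcn* was called lower in MUT against WT (log2 difference -1.56 ± 0.48, adjusted p = 0.0339, limma). *Pecam1* was not called, at -0.46. MUT replicate 2, which had the lowest marker values of its group, had the lowest *Fgf21*, *Phgdh*, *Sesn2*, *Nupr1* and *Herpud1* of that group and the highest *Asns*, *Ddit3*, *Ddit4*, *Slc3a2* and *Mthfd2*. The part of granulosa RNA in the MUT differences, of the members as of the lists, was not tested.

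**Figure D5:**
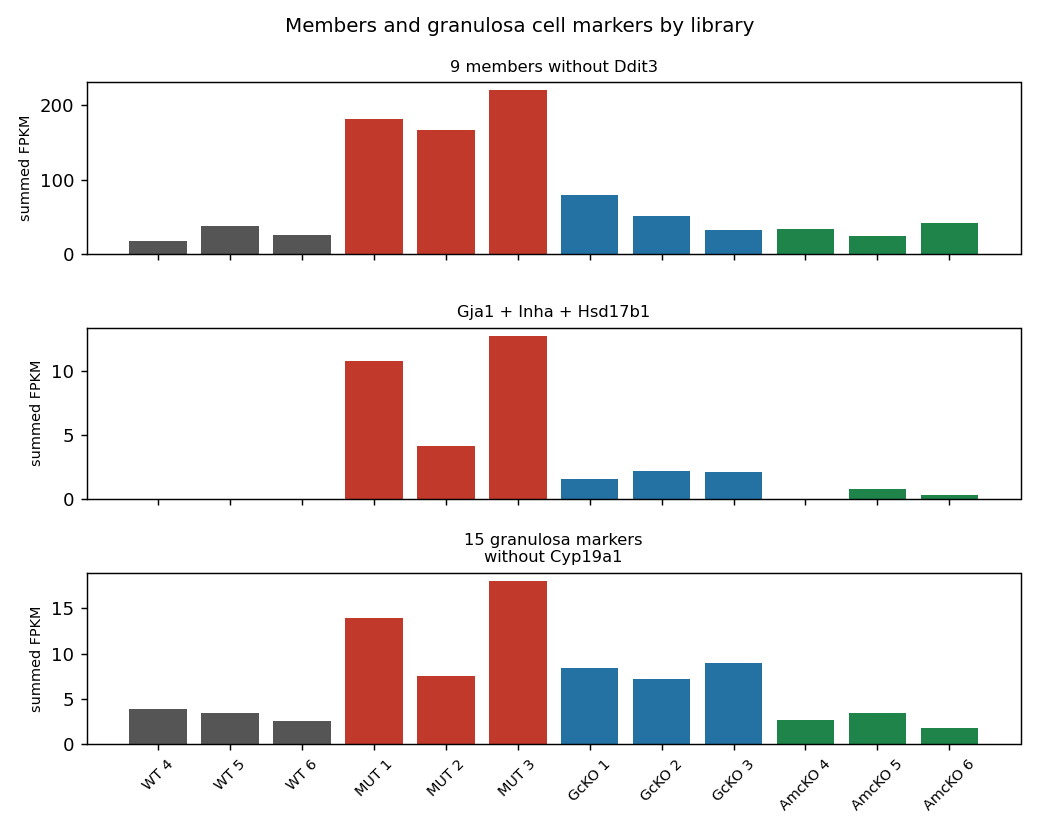
Summed FPKM per library of the 9 members other than *Ddit3* (top), of *Gja1*, *Inha* and *Hsd17b1* (middle) and of the 15 granulosa markers without *Cyp19a1* (bottom), with bars colored by group. The top and middle sums are highest in the 3 MUT libraries, and MUT replicate 2 is the lowest of its group in each. Most of the top sum in MUT is *Atf4* and *Fgf21*. Within MUT, *Fgf21* was lowest in replicate 2, while *Atf4*, *Asns*, *Chac1* and *Psat1* were lowest in replicate 1.

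Genes whose pattern over the 12 libraries was most like that of a member were ranked by the root mean square difference between standardised log2(FPKM + 1) profiles, where 0 is an identical profile. Nearest to *Fgf21* were *Myl4* (0.166), *1700003P14Rik* (0.166) and *Herpud1* (0.270), against a median of 1.37 over all tested transcripts. *Myl4* was at 1.10 to 1.32 FPKM in MUT and at 0 elsewhere. *1700003P14Rik* and *Herpud1* were likewise at 0 outside MUT, and each of these genes passed the filter through MUT alone. Standardised profiles of such genes are close to that of *Fgf21* whatever their level, so nothing is read from their rank. Nearest to *Asns* were *Ubxn6* (0.239), *Fgf21* (0.292) and *Myl4* (0.330). Nearest to *Atf4* were *Ept1* (0.331), *Atp2a2* (0.340) and *Mtmr9* (0.369), against a median of 1.34. *Atp2a2*, the calcium pump of the endoplasmic reticulum, measured 21.3, 26.2 and 31.3 FPKM in WT, 74.6, 78.1 and 98.9 FPKM in MUT, 81.5, 51.1 and 38.9 FPKM in GcKO, and 44.2, 34.3 and 46.2 FPKM in AmcKO. Like *Atf4*, it was higher in GcKO replicate 1 than in the other GcKO libraries. These likenesses are descriptions over libraries that share their groups.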

How the data were processed

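RNA was amplified from 20 oocytes per library by the Smart-seq2 procedure. According to the submitters' processing notes, reads were handled with TopHat2 2.0.13, Cufflinks 2.2.1, Cuffnorm and Cuffdiff on mm10. The authors deposited FPKM values, 1 column per library, and 18 further columns of their own comparisons (fold changes on the log2 scale with p and q values), which were not used. The gene annotation is not given in the sources used here. Raw counts were not analysed, and the relative worth of 1 fragment in a library was taken from the most frequent ratio of values under 1 FPKM to those of MUT replicate 2. No pair of libraries was identical. Groups came from the labels.

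Differences on the log2(FPKM + 1) scale were fitted by limma 3.58.1 (R 4.3.3), with a trend of the variance on abundance and all 12 libraries in 1 fit with 8 residual degrees of freedom, for transcripts with at least 1 FPKM in at least 1 library, and Benjamini-Hochberg adjustment over all 11233. The code was tested on simulated data. The study's criterion of a fold change over 2 was an alternative, beside other scalings, a pseudocount of 0.1, no filter, no trend, 2 groups alone, a replicate block and each library left out. The members, gene lists and marker lists were chosen with earlier results of these data known. Genes named in the text were the members, *Dpagt1*, up to 3 called genes with the smallest adjusted p per list and contrast against WT, a set of key regulators, markers, and the 3 nearest profiles of *Atf4*, *Fgf21* and *Asns*. Gene positions came from GENCODE M21 and promoters from RefSeq, both on GRCm38. Tables were made with Python 3.11.15, numpy 2.4.6 and pandas 2.3.3.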

Additional observations from a re-analysis of the deposited data

How the results depend on the processing

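The 6 member calls of MUT against WT, a description of members chosen with these values in view, ran from 4 to 7 over the alternatives, and *Phgdh* was lost with each library left out. Among those fits, *Psat1* stayed called only without MUT replicate 1. In AmcKO against WT 0 members were called under each alternative. With equal sums, members called went from 2 to 1 for GcKO against WT, from 4 to 8 for MUT against AmcKO and from 0 to 2 for GcKO against AmcKO, and listed genes from 29 to 72 for MUT and 20 to 68 for GcKO against WT, 1 to 4 for GcKO against MUT, 14 to 47 for MUT and 5 to 42 for GcKO against AmcKO. For GcKO against WT, 1 member was called with no filter, quantile normalization, no trend, 2 groups alone or a fold change over 2, and 12 listed genes under quantile normalization or 11 with the fold minimum. GcKO against MUT gave 1 member with a pseudocount of 0.1, and 3 listed genes without filter and 2 under quantile normalization or without trend. AmcKO against WT gave 2 listed genes with a pseudocount of 0.1 and 0 with 2 groups alone. MUT against AmcKO gave 8 listed genes without trend and 9 with the fold minimum, and GcKO against AmcKO 3 under quantile normalization or without trend, 1 with 2 groups alone and 2 with the fold minimum. Leaving out 1 library gave 0 to 2 members for GcKO against WT and 1 to 2 for GcKO against MUT, and 0 to 1 listed gene for GcKO against MUT, 5 to 11 for MUT against AmcKO and 3 to 6 for GcKO against AmcKO.

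Signs turned with equal sums for *Ddit3* (0.91 in MUT and 0.08 in GcKO against WT), *Nck1* (0.11 in GcKO against WT, 0.05 in MUT against AmcKO), and, against WT, *Eif2s2* (0.07 in GcKO), *Got1* (0.14 in GcKO), *Cth* (0.12 in MUT), *Ggct* (0.12 in GcKO) and *Manf* (0.33 in GcKO, and 0.11 against AmcKO), and under quantile normalization for *Ddit3* (0.76 in MUT) and *Ggct* (0.03 in GcKO). Equal sums raised the median of all transcripts to 0.68 in MUT and 0.71 in GcKO against WT, and to 0.51 and 0.53 against AmcKO. Of the values with equal sums, *Ddit3* in MUT was above that median and the others were below it.

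MUT and GcKO share the replicate numbers 1 to 3, and WT and AmcKO 4 to 6. Same-numbered libraries did not deviate together (correlations of -0.041 to 0.041), which shows no pairing but cannot exclude shared mice or preparation. Whether the number ranges mark a batch is not stated. Such a batch could not be told apart from the difference between MUT or GcKO and WT or AmcKO. With a replicate block, 1 member and 0 listed genes were called for GcKO against MUT, and 0 listed genes for AmcKO against WT. Depth limits the low members, since 1 fragment in WT was worth 2.28 to 2.67 times that in MUT replicate 2.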
